A study of Mus musculus with 14 samples.

Results

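The comparison set the transcripts of round spermatids labelled heterozygous for MIWI beside those of other sorted round spermatids of the same strain and age. The members were the genes listed in both deposited tables of transcript levels, in FPKM, a read-based level scaled for transcript length and library size, with genes listed in 1 table kept apart. There were 2536 shared genes among the 5607 genes listed in either table, 651 genes listed for the library labelled hetMIWI only and 2420 listed for the other round spermatids only. The study's 14 samples cover purification fractions of mouse testis around the chromatoid body and sorted round spermatids, and 3 of them enter this comparison. The group labelled heterozygous MIWI (hetMIWI) is 1 library from round spermatids sorted from adult C57BL/6 testes of mice at least 6 weeks old, and its labels do not give the allele. The other round spermatids are 2 libraries with the same strain, age and sorting and no MIWI allele in their labels. One of those libraries was made from RNA above 500 bp. The labels list a single gene table for that pair, so each gene had 1 value in each group as compared here. The lysate of crosslinked testis cells (1 library) and the immunoprecipitate of MVH (MVH IP, 3 libraries under 1 value per gene), from the same strain and age, served as measurements outside the comparison. No error between replicates could be given for any value, and no test or p-value could be had.

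MIWI, encoded by Piwil1, is the PIWI protein of mouse meiotic and round spermatid stages, where it binds the piRNAs of adult testis. Piwi proteins concentrate in the chromatoid body, the granule beside the spermatid nucleus that also holds many mRNAs and the RNA helicase MVH (Ddx4). Round spermatids transcribe the genes of the acrosome, the flagellum and sperm chromatin, store many of these mRNAs, and translate them later, when histones give way to transition proteins and protamines. Mice that lack MIWI arrest as round spermatids, and heterozygotes are commonly used as fertile controls.

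Piwil1 was listed at 7.79 FPKM in the library labelled hetMIWI, against 5.01 FPKM in the other round spermatids. The gene lies at chr5:129242120-129261349 on the plus strand (mm9). Both values stood near the lowest listed values, which were 5.00 FPKM in each table. In the lysate Piwil1 had 52.2 FPKM and in the MVH IP 36.9 FPKM. Relative to the median gene, Piwil1 was 1.13-fold higher in the library labelled hetMIWI, so its level does not check the label.

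Across the 2536 shared genes, the median level was 24.2 FPKM in the library labelled hetMIWI and 20.5 FPKM in the other round spermatids. The median ratio was 1.38-fold (0.46 on the log2 scale). Since the tables were scaled apart, ratios below are log2 ratios of the library labelled hetMIWI over the other round spermatids, minus this median. Where genes were filtered by level, interval, transcript number, MVH IP agreement or length over 1500 bases, the filtered genes' own median was subtracted instead. It was 0.69 for MVH IP values within 1.5-fold between deposited tables, 0.50 for the same interval and 0.34 for length. Such values are not on the same zero as those over all shared genes. Centred on all shared genes, 101 genes (3.98%) were 2-fold or more higher in the library labelled hetMIWI and 494 genes (19.5%) were 2-fold or more lower. The remaining 1941 genes (76.5%) lay within 2-fold. Without the shift by the median the split was 395 higher and 290 lower, so the balance of directions depends on the scaling, and a list whose median lies between -0.46 and 0 stands at or above 0 without the shift. The quartiles were -0.78 and 0.42, and the whole range from -6.55 to 3.58. At 4-fold, 19 genes were higher and 136 lower. Ribosomal protein genes led the higher side, and Ip6k1, which encodes an inositol hexakisphosphate kinase, led the lower side.

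**Figure D1:**
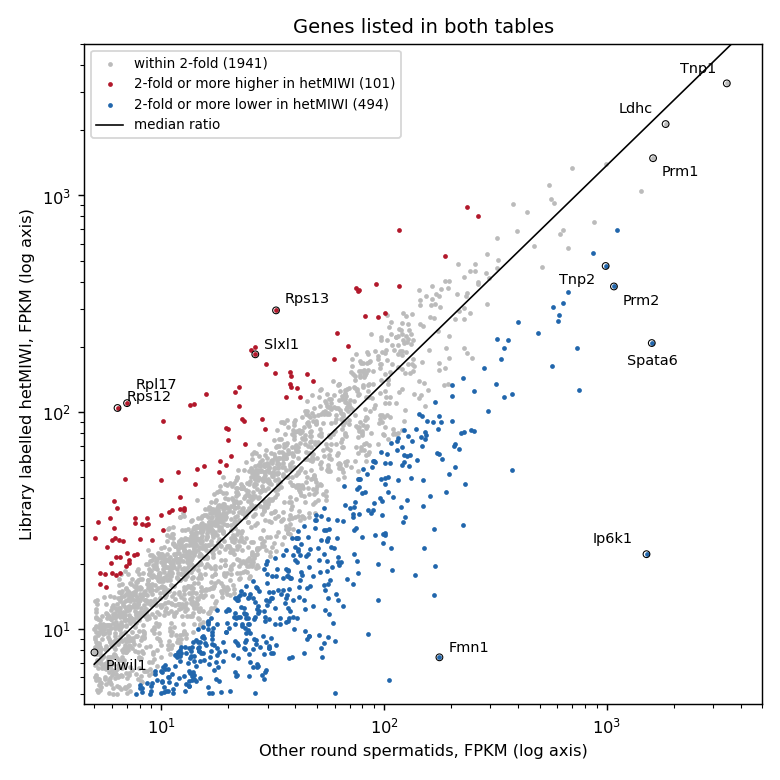
FPKM in the library labelled hetMIWI (vertical) against FPKM in the other round spermatids (horizontal), both on log axes, for the 2536 genes listed in both tables. Each point is a gene, the line is the median ratio, and the 494 lower genes (blue) spread farther from it than the 101 higher genes (red).

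A gene that was not listed in the table labelled hetMIWI could not be read as low. Of the genes at 5 to 10 FPKM in the other round spermatids, 41.9% were also listed for the library labelled hetMIWI, and of those at 300 FPKM or more the share was 59.2%. In the opposite direction, 49.3% of genes at 5 to 10 FPKM in the library labelled hetMIWI were listed for the other round spermatids, and between 79.8% and 94.6% in the bins from 10 FPKM up. Among the 2420 genes listed for the other round spermatids only, 182 had 100 FPKM or more. The highest were Pabpc1 (1091 FPKM), a poly(A)-binding protein, Psmc3 (893 FPKM), a proteasome ATPase, Ccdc77 (879 FPKM), 4732415M23Rik (875 FPKM) and Gm3417 (862 FPKM). Among the 651 genes listed for the library labelled hetMIWI only, 41 had 100 FPKM or more, 26 of them when short RNA genes were left out. The highest of these were Mtrnr2l (826 FPKM), Tubb2c (419 FPKM), a beta-tubulin, March10 (357 FPKM), an E3 ubiquitin ligase of spermatids, Gm1821 (334 FPKM) and Eid3 (262 FPKM). Why abundant genes are absent from the table labelled hetMIWI was not tested, and the rest of the account rests on the shared genes.

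**Figure D2:**
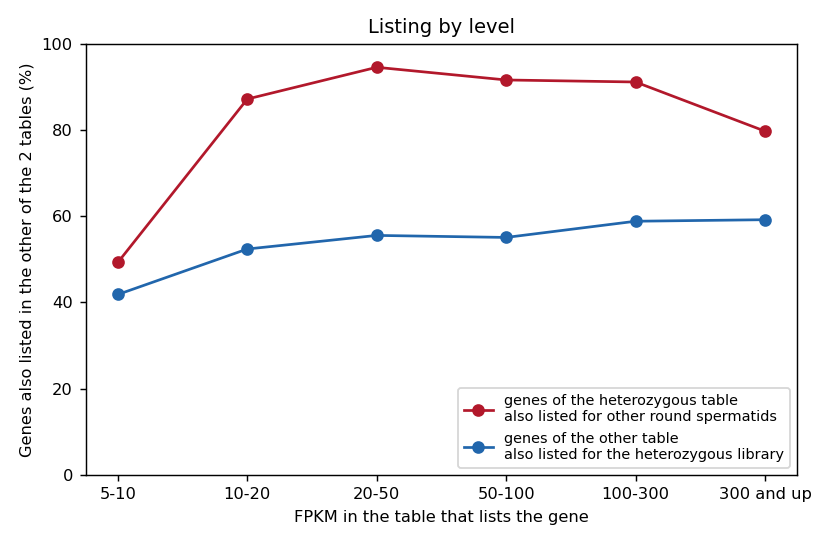
Share of genes of each table that the other of the 2 tables also lists (vertical, percent), by FPKM in the table that lists the gene (horizontal). Genes of the other round spermatids (blue) were listed for the library labelled hetMIWI in 41.9% to 59.2% of cases at every level, and genes of the library labelled hetMIWI (red) in 49.3% to 94.6%.

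Genes of the cytoplasmic ribosome were higher in the library labelled hetMIWI. Of the 84 ribosomal protein genes in the list, 36 were shared, and 24 of these were 2-fold or more higher while 1 was lower, against 3.98% and 19.5% of all shared genes. The median of the 36 was 1.37 on the log2 scale, against 0 for all shared genes. A further 31 were listed for the other round spermatids only, 6 for the library labelled hetMIWI only and 11 for neither. Of all 5607 genes listed for either group, 2420 were listed for the other round spermatids only and 651 for the library labelled hetMIWI only. Rps12, of the small subunit, had 104.6 FPKM in the library labelled hetMIWI, against 6.36 FPKM in the other round spermatids and 29.2 FPKM in the lysate. Rpl17, of the large subunit, had 110.1 FPKM in the library labelled hetMIWI against 7.02 FPKM in the other round spermatids. After centring these were differences of 11.95-fold for Rps12 and 11.4-fold for Rpl17. Both genes were near the listing floor in the other round spermatids. Of the 23 shared ribosomal genes at 10 FPKM or more in both tables, 14 were higher, against 60 of all 1777 genes at that level. Of the 23 with 1 RefSeq transcript, 12 were higher, against 50 of all 1102 such genes. Each subset was centred on the median of all genes in it. The lysate is also given in a joint table with the MVH IP, where Rps12 had 1.93 FPKM, and Rpl17 had 14.8 FPKM in the lysate's separate table and 1.12 FPKM in the joint one. In the MVH IP, Rps12 had 7.39 FPKM in the separate table and was listed at 0 in the joint one. Rps13 had 295 FPKM in the library labelled hetMIWI, against 32.7 FPKM in the other round spermatids, and Rpl22l1, a paralog of Rpl22, had 195 FPKM in the library labelled hetMIWI against 25.2 FPKM in the other round spermatids. Rps20, the most abundant shared ribosomal gene, stood closer, at 525 FPKM in the library labelled hetMIWI against 188 FPKM in the other round spermatids. Rpl29, Rpl12 and Rpl35 were also among the 10 highest of all shared genes, with 107.7, 109.2 and 121.8 FPKM in the library labelled hetMIWI, against 13.4, 14.1 and 15.9 FPKM in the other round spermatids. In the lysate, Rpl29 had 36.9 FPKM in the separate table and 0.30 FPKM in the joint one, while Rpl12 had 40.7 FPKM and 35.4 FPKM. The part of such table differences in the ribosomal ratios was not tested. Rpl30 went the other way, with 5.85 FPKM in the library labelled hetMIWI, against 29.0 FPKM in the other round spermatids. The other three of the 10 highest were not ribosomal by list. Tomm20, a receptor of mitochondrial import, had 49.1 FPKM in the library labelled hetMIWI against 6.89 FPKM in the other round spermatids. The predicted genes Gm6455 and Gm16430 had 90.9 and 199 FPKM in the library labelled hetMIWI, against 10.2 and 26.3 FPKM in the other round spermatids.

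Set against the lysate and centred in the same way, the 35 shared ribosomal genes with a lysate value had a median of 0.31 in the library labelled hetMIWI and -1.07 in the other round spermatids. The ribosomal genes are short, with a median longest transcript of 1124 bases against 3053 bases over all shared genes, and they have many processed pseudogenes, between which reads can be split. For 6 of the 24 higher ribosomal genes (Rpl12, Rpl17, Rpl27a, Rpl3, Rps12 and Rps3a) the interval in the table labelled hetMIWI matched that of a short RNA gene. The short RNA gene was listed there or in the joint table, and many ribosomal genes carry such genes in their introns. Over all shared genes this held for 2.56%. Among shared ribosomal genes with a longest annotated transcript over 1500 bases, 9 of 13 were higher and 1 lower. Their median was 1.74, centred on all 1877 genes over that length, of which 63 were higher and 381 lower. The longest annotated transcript need not be the one expressed, so this subset cannot decide the part of length, which was not tested.

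The promoters of a pair of these genes are shown because Rps12 had the largest ratio of all shared genes and Rps13 the next largest among the ribosomal genes after Rpl17. Each runs from 250 bases before to 50 bases after the annotated start (RefSeq, GRCm38.p6), at chr10:23787160-23787459 for Rps12 and chr7:116334141-116334440 for Rps13, both on the minus strand. Capitals mark matches to 3 motifs searched on both strands, of which none is part of another: CTTTTC, a pyrimidine run like those at the starts of ribosomal protein genes, the TATA box TATAAA, and the palindromic cAMP response element TGACGTCA.
Rps12: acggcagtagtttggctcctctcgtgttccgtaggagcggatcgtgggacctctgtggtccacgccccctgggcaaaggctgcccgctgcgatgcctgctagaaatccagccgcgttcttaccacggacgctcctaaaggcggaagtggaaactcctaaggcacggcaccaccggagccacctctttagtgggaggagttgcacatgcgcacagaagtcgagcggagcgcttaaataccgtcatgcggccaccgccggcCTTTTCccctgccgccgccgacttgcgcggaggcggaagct
Rps13: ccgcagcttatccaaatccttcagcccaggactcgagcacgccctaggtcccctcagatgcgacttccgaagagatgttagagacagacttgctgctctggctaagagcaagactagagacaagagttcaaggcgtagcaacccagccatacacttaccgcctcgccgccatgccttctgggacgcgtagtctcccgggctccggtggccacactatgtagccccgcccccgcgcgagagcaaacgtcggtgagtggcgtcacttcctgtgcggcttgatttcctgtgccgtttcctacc
Rps12 held CTTTTC just after its start and Rps13 held none of the 3. CTTTTC was found in 6 of the 23 shared ribosomal promoters with a sequence (26.1%). It was found in 18.6% of the 1841 matched promoters of shared genes and in 21.8% of all 27025 promoters.

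Among genes of the sperm nucleus and of the CREM programme, the share of lower members was near that of all shared genes (19.5%), and the medians were below 0. Of 14 genes known to depend on CREM, the cAMP-responsive activator of round spermatids, 11 were shared, 3 were 2-fold or more lower, none was higher, and their median was -0.53. Of 20 nuclear condensation genes, which include the same protamine and transition protein genes, 10 were shared, 2 were lower, and the median was -0.43. Prm2, which encodes a protamine, had 380 FPKM in the library labelled hetMIWI, against 1077 FPKM in the other round spermatids and 2882 FPKM in the lysate. Tnp2, a transition protein gene, had 473 FPKM in the library labelled hetMIWI against 989 FPKM in the other round spermatids, and 1665 FPKM in the lysate. Smcp, which encodes a mitochondrial capsule protein of the midpiece, had 541 FPKM in the library labelled hetMIWI, against 866 FPKM in the other round spermatids. The centred ratios of Prm2, Tnp2 and Smcp were -1.96, -1.52 and -1.14. Prm1 had 1486 FPKM in the library labelled hetMIWI against 1614 FPKM in the other round spermatids (centred ratio -0.58), and Tnp1 had 3290 FPKM in the library labelled hetMIWI against 3459 FPKM in the other round spermatids (-0.53), so these partners of Prm2 and Tnp2 lay within 2-fold. Ldhc, the sperm lactate dehydrogenase, had 2135 FPKM in the library labelled hetMIWI against 1838 FPKM in the other round spermatids (-0.24), and Acr, the acrosin gene, 194 FPKM in the library labelled hetMIWI against 110.7 FPKM in the other round spermatids (0.35). Without centring the CREM list's median was -0.07 and that of the condensation list 0.03, and with quantile normalization both were 0 and 1 of the 11 CREM-dependent genes was 2-fold lower, so the direction of these lists holds only relative to the median gene. Prm2 and Tnp2 were 2-fold or more lower in the library labelled hetMIWI on the raw scale too. These genes are short, with a median longest transcript of 864 bases in the CREM list and 614 bases in the condensation list.

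The promoters of Prm2 and Tnp2 are shown because these genes differed while Prm1 and Tnp1 did not reach 2-fold. They lie at chr16:10792056-10792355 for Prm2 and chr16:10788606-10788905 for Tnp2 (GRCm38.p6, both minus strand), with the same window and capitals.
Prm2: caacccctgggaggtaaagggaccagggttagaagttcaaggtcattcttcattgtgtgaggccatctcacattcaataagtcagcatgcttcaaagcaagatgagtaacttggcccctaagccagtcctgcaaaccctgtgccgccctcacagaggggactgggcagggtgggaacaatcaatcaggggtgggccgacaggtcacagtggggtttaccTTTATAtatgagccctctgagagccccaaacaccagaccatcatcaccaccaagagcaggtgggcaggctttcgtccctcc
Tnp2: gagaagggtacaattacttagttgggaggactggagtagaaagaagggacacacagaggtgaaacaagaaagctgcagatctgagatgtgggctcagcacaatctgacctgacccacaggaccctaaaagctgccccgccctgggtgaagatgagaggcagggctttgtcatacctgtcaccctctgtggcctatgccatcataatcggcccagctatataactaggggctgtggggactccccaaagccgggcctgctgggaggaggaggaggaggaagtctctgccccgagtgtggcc
Prm2 held TATAAA, read on the opposite strand, upstream of its start, and Tnp2 held none of the 3 motifs. TATAAA was in 14.2% of all promoters and 6.63% of the 1841 matched promoters of shared genes, and TGACGTCA in 1.88% and 4.07%. Of the 389 matched promoters of lower genes, 5.66% held TATAAA and 2.83% TGACGTCA. Of the 73 of higher genes, 6.85% and 5.48% held them.

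**Figure D3:**
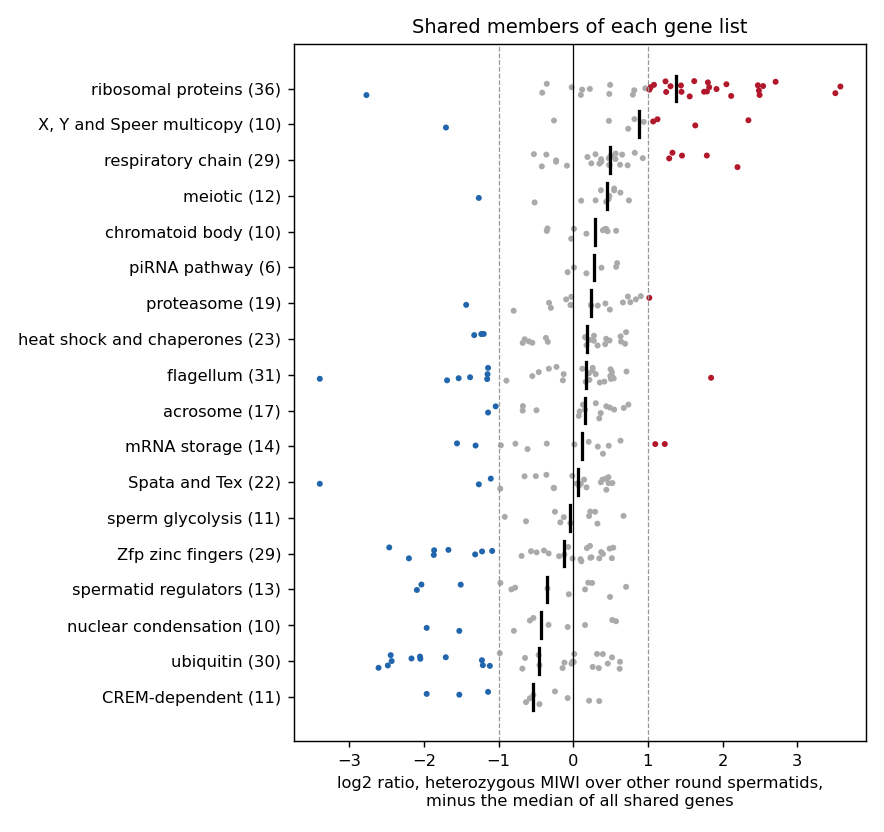
Centred log2 ratio (horizontal) of each shared member of 18 gene lists (vertical, shared members in brackets), with the list's median as a bar and dashed lines at 2-fold. Ribosomal protein genes had the highest median (1.37) and CREM-dependent genes the lowest (-0.53).

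Multicopy genes of the X and Y chromosomes and of the Speer family, which spermatids transcribe after meiosis, had a median of 0.88. Of 19 such genes, 10 were shared, 4 were 2-fold or more higher and 1 was lower, against 3.98% and 19.5% of all shared genes. The count of higher members was 1 of 6 at 10 FPKM or more in both tables and 1 of 8 among genes with 1 RefSeq transcript. Over all shared genes in those subsets it was 60 of 1777 and 50 of 1102. Of the 4 higher members, 3 were near the listing floor in the other round spermatids. Slxl1, an X-linked homolog of the Slx and Sly family, had 185 FPKM in the library labelled hetMIWI, against 26.4 FPKM in the other round spermatids and 44.0 FPKM in the lysate. Ssxb2 had 25.8 FPKM in the library labelled hetMIWI against 6.03 FPKM in the other round spermatids, Ssxb1 20.8 FPKM in the library labelled hetMIWI against 7.18 FPKM in the other round spermatids, and Speer4a 18.1 FPKM in the library labelled hetMIWI against 6.02 FPKM in the other round spermatids. Speer4b was lower, with 40.3 FPKM in the library labelled hetMIWI, against 95.5 FPKM in the other round spermatids, while Speer4d had 117 FPKM in the library labelled hetMIWI against 51.1 FPKM in the other round spermatids (centred ratio 0.74). Sly, the Y-linked member, had 253 FPKM in the library labelled hetMIWI and 7.04 FPKM in the lysate, and was not listed for the other round spermatids. Reads of these near-identical copies can be divided differently among members, so the values of single members are uncertain.

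**Figure D4:**
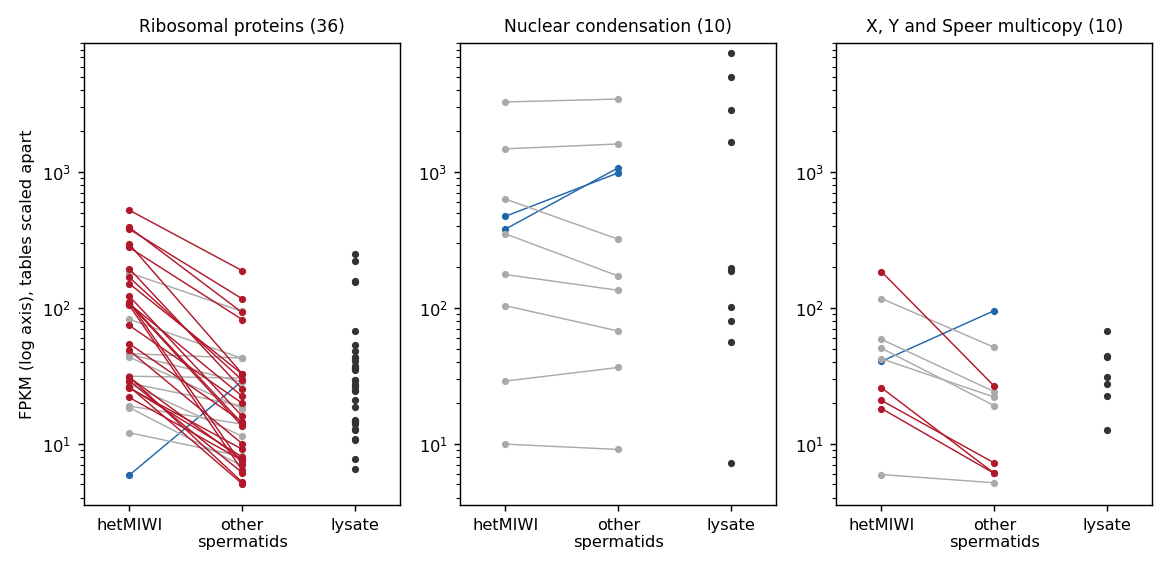
FPKM (vertical, log axis) of the shared members of 3 gene lists in the library labelled hetMIWI, the other round spermatids and the lysate, each point a gene and each line joining 1 gene's pair of round spermatid values (red 2-fold or more higher, blue lower, grey within 2-fold after centring). Most ribosomal lines slope down to the right, with 24 of 36 red, and those of Prm2 and Tnp2 slope up.

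Genes of sperm structure lay near the median. Of 51 flagellum genes, 31 were shared, with 1 higher, 7 lower and a median of 0.17, against 3.98% higher and 19.5% lower among all shared genes. Rsph3a, a radial spoke gene, had 372 FPKM in the library labelled hetMIWI, against 75.2 FPKM in the other round spermatids and 68.7 FPKM in the lysate. Spata6, needed for the sperm connecting piece, had 209 FPKM in the library labelled hetMIWI against 1593 FPKM in the other round spermatids, with 173 FPKM in the lysate. Odf2, of the outer dense fibres, had 691 FPKM in the library labelled hetMIWI against 1115 FPKM in the other round spermatids, and Tcp11 had 135 FPKM in the library labelled hetMIWI against 317 FPKM in the other round spermatids. Rabl2, Catsper4 (a sperm calcium channel subunit) and Spag17 (of the central pair) were lower by the same rule, with 17.5, 42.2 and 64.1 FPKM in the library labelled hetMIWI, against 36.8, 79.9 and 103.2 FPKM in the other round spermatids. The seventh lower gene was Smcp.

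Of 33 acrosome genes, 17 were shared, none higher and 2 lower, with a median of 0.16, against 3.98% higher and 19.5% lower among all shared genes. Pick1, a trafficking protein of acrosome formation, had 22.01 FPKM in the library labelled hetMIWI, against 35.3 FPKM in the other round spermatids, and Cylc2, of the perinuclear theca, had 59.8 FPKM in the library labelled hetMIWI against 89.3 FPKM in the other round spermatids. Spaca1, an acrosomal membrane protein, had 277 FPKM in the library labelled hetMIWI against 126 FPKM in the other round spermatids, a centred ratio of 0.68. Sperm glycolysis genes numbered 11 shared of 17, with none called in either direction and a median of -0.04. Among them the sperm phosphoglycerate kinase gene Pgk2 had 192 FPKM in the library labelled hetMIWI against 120.5 FPKM in the other round spermatids and Gapdhs 156 FPKM in the library labelled hetMIWI against 176 FPKM in the other round spermatids.

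Of 30 genes of mRNA storage and translational control, 14 were shared, 2 were higher, 2 were lower, and the median was 0.11. Among all shared genes 3.98% were higher and 19.5% lower. Papolb, a testis poly(A) polymerase, had 202 FPKM in the library labelled hetMIWI, against 68.6 FPKM in the other round spermatids, and Fam46c, a further poly(A) polymerase, had 117 FPKM in the library labelled hetMIWI against 36.4 FPKM in the other round spermatids. Samd4 (Smaug) had 25.9 FPKM in the library labelled hetMIWI against 55.2 FPKM in the other round spermatids and Dazap1, an RNA-binding protein, 22.8 FPKM in the library labelled hetMIWI against 41.0 FPKM in the other round spermatids. Of 26 regulators of spermatid transcription, 13 were shared, none higher and 3 lower, with a median of -0.34. Crem itself had 82.0 FPKM in the library labelled hetMIWI, against 254 FPKM in the other round spermatids and 31.6 FPKM in the lysate. Brwd1, a bromodomain protein of spermiogenesis, had 15.7 FPKM in the library labelled hetMIWI against 46.7 FPKM in the other round spermatids, and Rfx4 had 14.8 FPKM in the library labelled hetMIWI against 30.5 FPKM in the other round spermatids. Hmgb4 had 302 FPKM in the library labelled hetMIWI against 228 FPKM in the other round spermatids, a centred ratio of -0.06. Over the 7 shared regulators whose interval was the same in both tables, the median was 0.16, centred on all genes passing that filter.

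None of the shared genes of the chromatoid body or the piRNA pathway reached 2-fold, against 3.98% higher and 19.5% lower among all shared genes. Of 30 chromatoid body genes, 10 were shared, with ratios between -0.35 and 0.58. Ybx2, the mRNA-storing Y-box protein, had 665 FPKM in the library labelled hetMIWI, against 617 FPKM in the other round spermatids. Hspa2, the testis HSP70, had 481 FPKM in the library labelled hetMIWI against 257 FPKM in the other round spermatids, and the helicase Ddx25 152 FPKM in the library labelled hetMIWI against 82.2 FPKM in the other round spermatids. Of 22 piRNA pathway genes, 6 were shared, with a median of 0.28. Gtsf1, a partner of PIWI proteins, had 158 FPKM in the library labelled hetMIWI against 121 FPKM in the other round spermatids, Rnf17, a Tudor protein, 36.1 FPKM in the library labelled hetMIWI against 26.0 FPKM in the other round spermatids, and Tdrd9, a Tudor helicase, 15.8 FPKM in the library labelled hetMIWI against 7.68 FPKM in the other round spermatids. Ddx4 (119 FPKM) and Tdrd7 (217 FPKM) were listed for the other round spermatids only. Of 18 genes of nonsense-mediated decay, a pathway whose factors occur in the chromatoid body, 3 were shared and none was called: Smg6 had 29.5 FPKM in the library labelled hetMIWI against 15.6 FPKM in the other round spermatids. Of 45 meiotic genes, 12 were shared, none higher and 1 lower, with a median of 0.46. The lower gene was Tex15, with 15.4 FPKM in the library labelled hetMIWI against 26.8 FPKM in the other round spermatids. Stag3, the meiotic cohesin, had 139 FPKM in the library labelled hetMIWI against 144 FPKM in the other round spermatids.

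Of 89 nuclear genes of the respiratory chain, 29 were shared, 5 were higher, none was lower, and the median was 0.49, against 3.98% higher and 19.5% lower among all shared genes. Among the 13 whose MVH IP values were within 1.5-fold between the separate and the joint table, 1 was higher and the median was 0.15. These were centred on all 1144 genes passing that filter, of which 14 were higher. Atp5k, of ATP synthase, had 365.5 FPKM in the library labelled hetMIWI, against 76.8 FPKM in the other round spermatids, and Ndufb4, of complex I, had 38.7 FPKM in the library labelled hetMIWI against 6.13 FPKM in the other round spermatids. Cox6c, Cox7a2l and Ndufb3 completed the 5, at 231, 40.7 and 21.6 FPKM in the library labelled hetMIWI, against 61.2, 12.1 and 6.24 FPKM in the other round spermatids. Of 43 proteasome genes, 19 were shared with 1 higher (Psmc6, 15.7 FPKM in the library labelled hetMIWI against 5.63 FPKM in the other round spermatids) and 1 lower (Psmb4, 28.9 FPKM in the library labelled hetMIWI against 56.8 FPKM in the other round spermatids). Of 79 heat shock and chaperone genes, 23 were shared, none higher and 3 lower, with a median of 0.18. The 3 were Hspa4l (215 FPKM in the library labelled hetMIWI against 359 FPKM in the other round spermatids), Dnaja1 (44.3 FPKM in the library labelled hetMIWI against 75.6 FPKM in the other round spermatids) and Dnajc10 (16.4 FPKM in the library labelled hetMIWI against 29.8 FPKM in the other round spermatids).

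Of 105 genes of ubiquitin conjugation, 30 were shared, none higher and 11 lower, with a median of -0.46, against 3.98% higher and 19.5% lower among all shared genes. Ube2j1, a conjugating enzyme needed in spermiogenesis, had 60.6 FPKM in the library labelled hetMIWI, against 182 FPKM in the other round spermatids and 57.5 FPKM in the lysate. Otub2 had 37.0 FPKM in the library labelled hetMIWI against 150.1 FPKM in the other round spermatids, Ube2k 25.02 FPKM in the library labelled hetMIWI against 99.0 FPKM in the other round spermatids and Ube2g2 12.3 FPKM in the library labelled hetMIWI against 54.2 FPKM in the other round spermatids. Of 357 zinc finger genes named Zfp, 29 were shared, none higher and 8 lower, with a median of -0.12. Zfp37 was the most abundant of the lower ones, with 49.7 FPKM in the library labelled hetMIWI against 131.8 FPKM in the other round spermatids. Of 11 ubiquitin genes whose MVH IP values were within 1.5-fold between 2 deposited tables, none was lower and the median was 0.04. These were centred on all 1144 genes passing that filter, of which only 72 were lower. Without centring the ubiquitin list had 2 higher and 8 lower members. The histone list had 4 shared genes of 82, none called, among them the replacement histone H3f3a with 482.5 FPKM in the library labelled hetMIWI against 215 FPKM in the other round spermatids. Of 34 Spata and Tex genes, 22 were shared, with 3 lower and a median of 0.06. Over the 7 genes passing the same MVH IP filter, and centred like the ubiquitin genes there, the median was -0.49. The uncharacterized testis clones, of a pair of Riken series listed by the start of their names, were near the median, with 1 higher and 9 lower among 75 shared genes of the first Riken series and 1 higher and 9 lower among 77 of the second.

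Many of the called genes, lower and higher, also differed between the deposited tables of the MVH IP. The MVH IP was deposited both in a table of its own and in a joint table with the lysate. The name of the joint one also carries abbreviations for supernatant, pellet and round spermatids. Only its lysate and MVH IP values were read, so whether it holds another value for the other round spermatids was not examined. The log2 ratio of the pair of MVH IP values, minus its median, was compared with the ratio between the round spermatids. Of the 353 lower genes with both MVH IP values, 262 (74.2%) were 2-fold or more higher in the separate table than in the joint one. The share was 5.19% among the 77 higher genes and 21.5% among all 1971 genes with both values. In the opposite direction, 32 of the 77 higher genes (41.6%) were 2-fold or more lower in the separate table, against none of the 353 lower genes and 4.36% of all. Spearman's rho across these 1971 genes was -0.69, given as a description since genes are not independent. The same relation with the lysate's 2 tables had a rho of 0.01 over 2310 genes. By the 2-fold measure, though, 19 of the 93 higher genes with both lysate values (20.4%) were apart between the lysate's tables, against 0.24% of the lower genes and 1.69% of all. The part of these table differences in the higher and the lower genes was not tested.

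Ip6k1, at chr9:107904978-107951113 (mm9), had 22.1 FPKM in the library labelled hetMIWI, against 1508 FPKM in the other round spermatids. Its lysate value was 16.6 FPKM, and its MVH IP value was 5146 FPKM in the separate table and 93.0 FPKM in the joint one. Fmn1, a formin, had 7.40 FPKM in the library labelled hetMIWI, against 177 FPKM in the other round spermatids, and its MVH IP values were 341 FPKM and 8.12 FPKM. Strbp, a spermatid RNA-binding protein, had 14.4 FPKM in the library labelled hetMIWI against 168 FPKM in the other round spermatids, and its MVH IP values were 247 FPKM and 23.4 FPKM. Spata6, described above, had 2988 FPKM and 371 FPKM in the MVH IP. The others of the 10 lowest had centred ratios between -4.64 and -3.37. Extl2, Ccdc21 and N4bp2l2 had 5.80, 5.06 and 9.47 FPKM in the library labelled hetMIWI, against 104.9, 59.9 and 84.8 FPKM in the other round spermatids. Lats2 (a Hippo pathway kinase), Atxn2 and Rbms1 (both RNA-binding proteins) had 19.4, 17.7 and 30.0 FPKM in the library labelled hetMIWI, against 170.0, 137 and 226 FPKM in the other round spermatids. Of the 3 lower CREM-dependent genes, Prm2, Tnp2 and Smcp, the MVH IP values were 0.20 to 0.36 lower on the log2 scale in the separate table than in the joint one after the median shift, so these genes were not among those raised in the separate table.

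Restricted to the 1144 shared genes whose MVH IP values were within 1.5-fold between tables, and centred on their own median, 14 genes were higher and 72 lower. The higher ones included Rpl12, Rps6, Rps27l, Rsph3a, Fam46c, Ndufb3, Fbl (fibrillarin, a nucleolar methyltransferase), Snrpb2 (a splicing protein) and Timm23 (a mitochondrial import channel). The lower ones included Prm2, Tnp2, Smcp, Meig1, Catsper4 and Spag17. Meig1, a meiosis-expressed gene of the sperm manchette, had 1051 FPKM in the library labelled hetMIWI, against 1420 FPKM in the other round spermatids, with a ratio of -1.12 within this set. Only 5 ribosomal genes had such values, and 3 of these were higher.

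The ratio also moved with transcript length. The 81 shared genes with a longest transcript up to 750 bases had a median of 0.27, with 13.6% higher and 3.70% lower. The 257 genes over 6000 bases had a median of -0.55, with 1.95% higher and 36.2% lower. Spearman's rho was -0.27 over 2285 genes. The median longest transcript was 1795 bases among the higher genes and 3889 bases among the lower genes. Of the other round spermatid libraries, the one made from RNA above 500 bp differs in size selection, and in a single value per gene its part cannot be told apart from that of the allele.

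**Figure D5:**
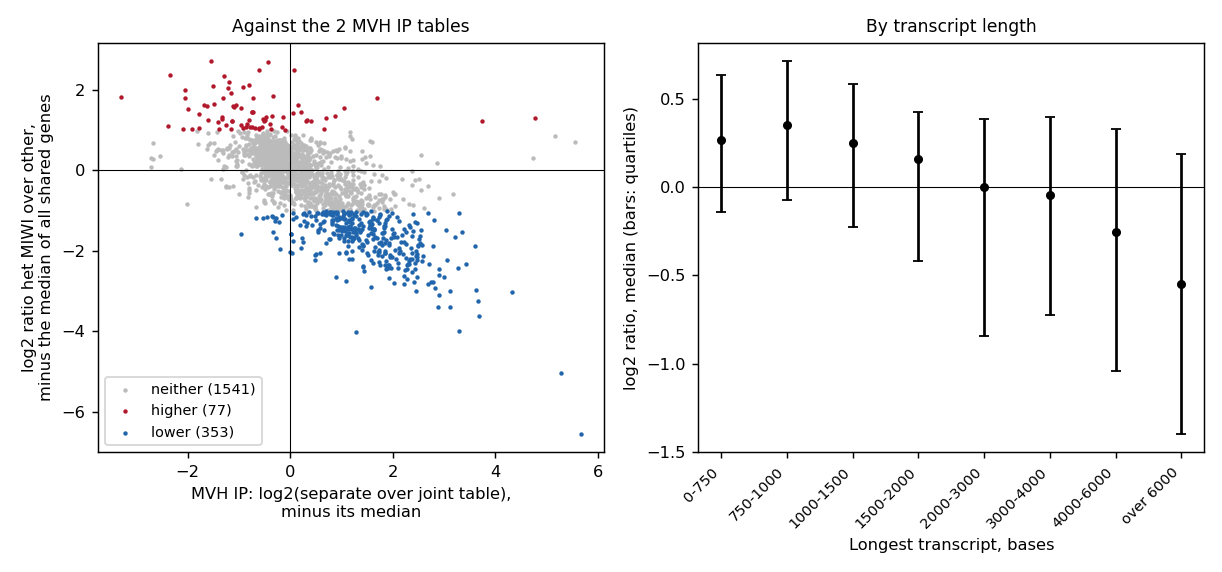
Left, centred log2 ratio of the library labelled hetMIWI over the other round spermatids (vertical) against the log2 ratio of the MVH IP values in the separate over the joint table, minus its median (horizontal), for 1971 genes. Right, median and quartiles of the centred ratio in bins of longest transcript (bases), falling to -0.55 over 6000 bases.

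By rank over the 1812 genes listed in all 4 separate tables, the library labelled hetMIWI and the lysate had a Spearman rho of 0.83, the library labelled hetMIWI and the other round spermatids 0.79, and the other round spermatids and the lysate 0.73. With the MVH IP, rho was 0.47 for the library labelled hetMIWI and 0.68 for the other round spermatids. These are descriptions across genes within single values per table.

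Round spermatid markers had the largest summed level of the marker groups in both tables. Of these, 10 of 12 were listed for the library labelled hetMIWI (6399 FPKM) and all 12 for the other round spermatids (7836 FPKM). Tssk1 and Tssk2 were the missing pair. Much of the sum came from Tnp1 and Prm1, with 3290 and 1486 FPKM in the library labelled hetMIWI. In the other round spermatids these genes had 3459 and 1614 FPKM. Of 7 spermatocyte markers, 5 were listed in each table, with summed levels of 272 FPKM in the library labelled hetMIWI and 223 FPKM in the other round spermatids. In the lysate, 12 round spermatid markers summed to 17782.5 FPKM and 6 spermatocyte markers to 184.6 FPKM. The tables were scaled apart, and these sums show no enrichment of round spermatid markers over the lysate. None of the 6 spermatogonial, 8 Sertoli, 6 Leydig or 10 peritubular, vascular, macrophage and blood markers was listed in either round spermatid table. The lysate listed 1 of these Sertoli markers, 4 of the Leydig markers and 2 of the last group. In longer lists of such cells, 1 gene was shared, the lipoprotein receptor Scarb1, a Leydig list member that was lower in the library labelled hetMIWI (5.14 FPKM, against 10.3 FPKM in the other round spermatids). Listed for the other round spermatids only were 2 genes of the spermatogonia list (up to 429 FPKM), 1 of the Sertoli list (6.87 FPKM) and 1 of the Leydig list (6.39 FPKM). None of 17 nuclear long noncoding RNAs was listed. In such bulk samples fewer cells of a type and less RNA per cell cannot be told apart.

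Short RNA genes were listed as genes only for the library labelled hetMIWI, where 34 of them made up 23.3% of the summed FPKM. Snord8 alone had 22944 FPKM there. The other round spermatids' short RNAs were deposited in a table of other RNAs, which named 10 of the 34. Rnu12, the U12 spliceosomal RNA, had 4478 FPKM in the library labelled hetMIWI, against 2559 FPKM in the other round spermatids. Snord53 had 1809 FPKM in the library labelled hetMIWI against 27266 FPKM in the other round spermatids and Snord82 1238 FPKM in the library labelled hetMIWI against 7697 FPKM in the other round spermatids. FPKM of such short features is unstable, and the tables were counted apart, so no ratio is read from them.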

How the data were processed

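RNA was measured by RNA-seq in sorted round spermatids, testis lysate and MVH IP. Per the labels' protocols, libraries were made by not-so-random priming and products of 350 to 500 bp were kept. Per the submitters' processing notes TopHat, Cuffdiff and the mm9 genome were used; no source used here gives versions, depth or the use of strand. The authors deposited FPKM values, in a separate table per group, with no value under 5 FPKM in the 2 round spermatid tables compared.

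From these the highest value per gene was taken, and the log2 ratio, without a pseudocount, was centred on the median of all shared genes. A gene was called at 2-fold. There is 1 value per gene and group, so no test was run. The calculation was run on simulated data with known folds and little noise, which checks the arithmetic and not the calls made here. Named genes are Piwil1, the 10 highest and 10 lowest ratios at a mean of 10 FPKM or more, the 5 highest genes listed in 1 table only (short RNAs left out), and, per list, the most abundant members and those called; Sly, Ddx4, Tdrd7, Acr, Speer4d, Hmgb4 and similar members within 2-fold, and the examples of the restricted set of 1144 genes, were chosen after their values were seen. The members and the 28 gene lists were chosen with earlier results of these data known. Transcript lengths came from GENCODE and promoters from RefSeq GRCm38.p6, matched by symbol. Python 3.11.15 with pandas 2.3.3, numpy 2.4.6 and matplotlib 3.10.9 was used.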

Additional observations from a re-analysis of the deposited data

How the results depend on the processing

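The counts of higher and lower genes moved with the settings, while their order, more lower than higher, held in each of them except without centring. A 1.5-fold threshold gave 331 higher and 757 lower genes, and a 4-fold threshold 19 and 136. Genes at 10 FPKM or more in both tables gave 60 and 322. Without centring there were 395 higher and 290 lower, and with quantile normalization 166 higher. Among alternatives chosen after seeing the data, genes whose MVH IP values agreed within 1.5-fold between tables gave 14 and 72, genes with 1 RefSeq transcript 50 and 196, and genes with a longest transcript over 1500 bases 63 higher. Fewer genes were compared in those 4 subsets, each centred on its own median. From 10 FPKM up, 216 genes were listed for the library labelled hetMIWI only. Of the other settings none moved either count by more than 1.5 times. Each of the 10 highest and 10 lowest genes kept its direction and its side of 2-fold under every setting in which it could be measured. Piwil1 stayed within 2-fold, but its ratio went from 0.18 to -0.05 in the subset with MVH IP values within 1.5-fold. The median of the X and Y multicopy list passed 2-fold without centring (1.34) and with quantile normalization (1.10) and was 0.63 over genes with 1 RefSeq transcript. Its 4 higher members became 1 of 6 at 10 FPKM or more, 1 of 8 with 1 RefSeq transcript, 2 of 10 with log2(FPKM + 5) and 0 of 2 in the MVH IP subset. In that subset the Spata and Tex median was -0.49 over 7 genes. The median of the CREM-dependent list was 0.33 over 3 genes with transcripts over 1500 bases. No paired analysis was possible because each group had 1 value per gene; for the same reason no library could be left out, and a fit with a replicate block was not run. Depth is unknown, so no counting error can be given, and differences near 5 FPKM rest on the listing floor.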
